A study of Homo sapiens with 12 samples.

Results

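The 10 genes described here make, bind, sense and break down retinoic acid: the retinaldehyde dehydrogenases *ALDH1A1*, *ALDH1A2* and *ALDH1A3*, the retinoic acid receptors *RARA*, *RARB* and *RARG*, the binding protein *CRABP2*, the hydroxylases *CYP26A1* and *CYP26B1*, and the reductase *DHRS3*. They were chosen by symbol, and all 10 were found among the 23346 genes of the expression table. The RNA came from 2 established human pancreatic adenocarcinoma lines, SW1990 and CFPAC-1, and was sequenced after fluorescence activated cell sorting with the GCTM-5 antibody, which binds a glycoprotein complex related to CA 19-9. The 12 samples formed 4 groups of 3: SW1990 negative, SW1990 positive, CFPAC-1 negative and CFPAC-1 positive for the antigen. No group carried a genetic change or drug treatment, all cells grew as monolayers in medium with fetal bovine serum, and sorting kept the brightest and the unstained cells, with intermediate cells discarded. The samples came from triplicate sorts, and where nothing says that these were separate cultures the p-values measure the spread between sorts of 1 line. Values are reads normalised to gene length and library size (RPKM), so levels of different genes can be set beside each other.

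Retinol is taken up from the blood or the medium, stored as esters, or oxidised to retinaldehyde and then, irreversibly, to retinoic acid. Retinoic acid reaches the nucleus on binding proteins and activates RAR/RXR heterodimers, which sit on paired half-sites in DNA. CYP26 enzymes hydroxylate retinoic acid and so limit its level, DHRS3 turns retinaldehyde back into retinol, and *CYP26A1*, *RARB* and *DHRS3* are themselves known as genes induced by retinoic acid. In the pancreas, retinoic acid is known for its part in the specification of the organ, and *ALDH1A* enzymes have been used as markers of progenitor-like and tumour-initiating cells.

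In hg19 coordinates (GRCh37), *ALDH1A1* lies at chr9:75515587-75695358 on the minus strand, *ALDH1A2* at chr15:58245622-58790065 (minus) and *ALDH1A3* on the same chromosome at chr15:101417919-101456831 (plus). *RARA* is at chr17:38465432-38513895 (plus), *RARB* at chr3:24729378-25639423 (plus) and *RARG* at chr12:53604351-53626764 (minus). *CRABP2* is at chr1:156669398-156675608 (minus), *DHRS3* at chr1:12627939-12678216 (minus), *CYP26A1* at chr10:94833232-94837642 (plus) and *CYP26B1* at chr2:72356367-72374991 (minus). Exons of *ALDH1A2*, *ALDH1A3* and *RARA* overlap a gene on the opposite strand, and exons of *ALDH1A3* and *CYP26A1* overlap a non-coding RNA on their own strand. Since the use of strand in counting is not given in the sources used here, reads of such partners cannot be told apart. The 1 partner that is in the table, *AQP9* opposite *ALDH1A2*, did not exceed 0.0303 RPKM in any sample.

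Because *RARB* and *CYP26A1* are textbook targets of retinoic acid, the promoters of the 10 genes were searched for the letters of a retinoic acid response element. RefSeq windows on GRCh38.p14, each running from 250 bases before to 50 after an annotated start, gave 19 windows for the 10 genes. A match was a pair of half-sites in the same direction, each reading AGGTCA or else AGTTCA or else GGGTCA or else GGTTCA, with a spacer of 2 or 5 bases, on either strand. Such a repeat was found in 2 of the 19 windows, against 45 of 35116 windows of all genes (0.128%), and in 0 windows of the other retinoid pathway genes listed below. Both windows are shown up to the start site, 5′ to 3′ on the plus strand, on which both genes lie, with the repeat in capitals. The upper sequence is chr3:25428013-25428262 and the lower chr10:93073643-93073892.
RARB: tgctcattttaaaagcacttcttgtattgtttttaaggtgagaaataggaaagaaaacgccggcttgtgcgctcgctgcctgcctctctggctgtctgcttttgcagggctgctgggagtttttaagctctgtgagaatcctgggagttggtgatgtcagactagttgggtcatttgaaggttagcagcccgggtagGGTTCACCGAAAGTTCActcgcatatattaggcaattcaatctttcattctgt
CYP26A1: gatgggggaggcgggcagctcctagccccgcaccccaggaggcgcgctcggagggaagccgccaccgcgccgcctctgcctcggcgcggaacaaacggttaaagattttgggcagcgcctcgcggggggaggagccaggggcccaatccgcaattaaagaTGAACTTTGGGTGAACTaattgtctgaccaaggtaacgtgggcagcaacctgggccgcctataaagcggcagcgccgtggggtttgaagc
The *RARB* repeat reads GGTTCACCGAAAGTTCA on the strand of the gene, with a spacer of 5 bases, and spans 53 to 37 bases before the start. In *CYP26A1* the repeat lies on the opposite strand, where it reads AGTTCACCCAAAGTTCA with the same spacer, 90 to 74 bases before the start. A match of letters is a description and not evidence that a receptor was bound there, and a window without a match says only that these letters are not in it. The search was made because *RARB* and *CYP26A1* are known targets, and these are the genes with a match. The share of windows among the 10 genes is therefore no test of enrichment.

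Library totals, recovered from the RPKM values, ran from 9969697 to 26159330 reads. CFPAC-1 positive replicate 3 had the lowest total and stood farthest from its own group, with a root mean square log2 distance of 0.535 from the other 2 samples over 13267 genes, against 0.272 to 0.411 for the other 11 samples. Values without it are given beside those it touches most. All 8 epithelial markers (*EPCAM*, *CDH1*, *KRT7*, *KRT8*, *KRT18*, *KRT19*, *CLDN4* and *ESRP1*) were above 1 RPKM in every group, as the labelled cell type requires. Their summed level was 1669 to 1986 RPKM in SW1990 negative cells and 4877 to 5227 in SW1990 positive cells. By the call defined below, 7 of 8 rose with the antigen there, where 4.59% of all genes tested did. The corresponding ranges in CFPAC-1 were 6772 to 7744 and 7407 to 9107. None of the 8 was called there, where 5.65% of all genes were higher and 4.13% lower. Of the 5 mesenchymal markers *TWIST1* was at 0 in all samples, and the sum was 1172 to 1352 RPKM in SW1990 negative and 188 to 387 in SW1990 positive cells. There 3 of 4 tested genes were lower, against 7.48% of all genes. In CFPAC-1 the mesenchymal sum was 553 to 748 RPKM in negative and 425 to 597 in positive cells, with 1 of 4 lower, against 4.13% of all genes. *ZEB1*, 1 of those 5, was picked by the study on these samples.

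Most markers of other cell types were low, the highest being *LUM* and *CDH5* in SW1990 negative cells and *CD14* in CFPAC-1 negative cells. The 6 fibroblast genes summed to 12.7 to 22.6 RPKM in SW1990 negative cells, to 3.90 to 4.86 in SW1990 positive cells and to 1.26 to 2.39 in CFPAC-1, and *COL3A1* and *DCN* were at 0 in every group but SW1990 negative. The largest part in SW1990 negative cells was *LUM*, with a mean of 13.2 RPKM. The 3 stellate cell genes summed to at most 1.82 RPKM in any sample. Endothelial genes summed to 14.8 to 18.8 RPKM in SW1990 negative cells and to at most 2.05 elsewhere. That sum was nearly all *CDH5*, with a mean of 15.6 RPKM in SW1990 negative cells, where *PECAM1* averaged 0.717 and *VWF* 0.202. The leukocyte sum was at most 1.81 RPKM in SW1990 but 8.61 to 9.57 in CFPAC-1 negative and 2.60 to 4.38 in CFPAC-1 positive cells. *CD3E* was at 0 in both SW1990 groups and *PTPRC* in CFPAC-1 negative cells. The leukocyte sum in CFPAC-1 was nearly all *CD14*, with means of 9.23 and 3.19 RPKM in negative and positive cells. These lists moved with the antigen in SW1990, and the leukocyte sum moved in CFPAC-1 as well, where the log2 fold change of *CD14* was -1.54. The part of these lists in the changes described below was not tested. In bulk samples, fewer cells of a type and less RNA per cell cannot be told apart.

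Differences were tested with limma on log2(RPKM + 0.1) over the 16236 genes with a mean of at least 0.1 RPKM, with Benjamini-Hochberg adjustment over those genes, and fold changes are on that scale, which understates the change of low genes. A gene was called, and is said to have risen or fallen, when its fold change exceeded 2 and its unadjusted p was under 0.01. A change is said to differ between the lines when the test of the difference had an adjusted p under 0.05. Of the 10 genes 8 passed the filter, and *ALDH1A2* and *RARB* did not. In SW1990, *CRABP2* rose and *CYP26A1* and *CYP26B1* fell in GCTM-5 positive cells, 1 gene of 8 higher where 4.59% of all genes tested were, and 2 of 8 lower where 7.48% were. In CFPAC-1, *ALDH1A1* rose and *ALDH1A3* and *CYP26A1* fell, 1 of 8 higher against 5.65% of all genes and 2 of 8 lower against 4.13%. With each sample centred on its median, all genes called in CFPAC-1 changed from 917 higher and 671 lower to 724 higher and 858 lower. By adjusted p alone, 4 of 8 genes passed 0.05 in SW1990 (28.2% of all genes) and 6 of 8 in CFPAC-1 (36.5%), and the median log2 fold change of the 8 was -0.19 and -0.74 beside -0.04 and 0.05 over all genes. The only gene called in the same direction in both lines was *CYP26A1*.

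**Figure D1:**
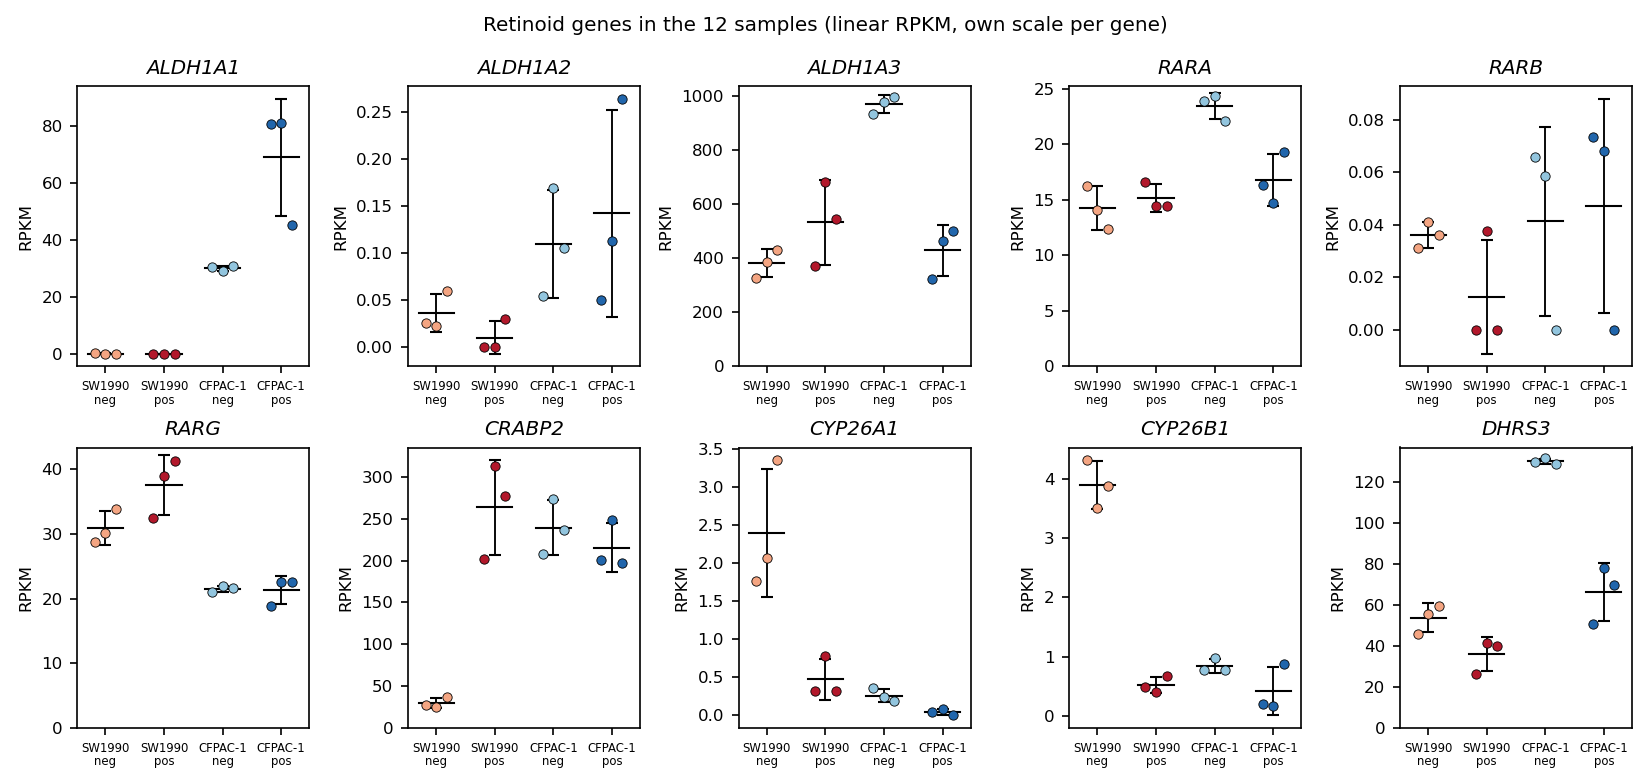
RPKM of the 10 retinoid genes in the 12 samples, on a linear axis with its own scale for each gene; points are samples, wide bars the group mean and error bars 1 SD (n = 3). *CRABP2* is low in SW1990 negative cells alone (25.0 to 36.4 RPKM), *ALDH1A1* exceeds 0.1 RPKM in CFPAC-1 alone, and *ALDH1A2* and *RARB* stay under 0.3 RPKM in every sample.

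*ALDH1A3*, which oxidises retinaldehyde to retinoic acid, was the most abundant of the 10 genes in every group. The samples of SW1990 negative cells held 327, 385 and 430 RPKM and those of SW1990 positive cells 369, 682 and 546. CFPAC-1 negative cells held 931, 977 and 996 RPKM, and CFPAC-1 positive cells 321, 464 and 501. CFPAC-1 negative cells thus stood above every other sample, and the remaining groups overlapped. In CFPAC-1, *ALDH1A3* fell from 968 ± 33.2 (SD, n = 3) to 429 ± 94.8 RPKM with the antigen (log2 fold change -1.20, SE 0.22, adjusted p = 0.00135), and it was -1.33 (adjusted p = 0.0016) without positive replicate 3. In SW1990 the log2 fold change was 0.45 (95% interval -0.02 to 0.92, adjusted p = 0.15), which did not pass. The change differed between the lines by 1.65 on the log2 scale (SE 0.30, adjusted p = 0.00203).

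*ALDH1A1*, which catalyses the same step and is widely used as a stem cell marker, was a gene of CFPAC-1. Negative cells of that line held 30.3, 29.0 and 30.7 RPKM and positive cells 80.5, 81.1 and 45.2. In SW1990 negative cells it was listed at 0.0822, 0 and 0.0477 RPKM, which is 6 reads over the group, and in SW1990 positive cells it was at 0 in all 3 samples. The 2 CFPAC-1 groups did not overlap, and positive replicate 3 lay closer to the negative samples than the other 2 positive samples did. Within CFPAC-1 the gene rose from 30.0 ± 0.860 to 68.9 ± 20.5 RPKM with the antigen (log2 fold change 1.15, SE 0.25, adjusted p = 0.00432), and the log2 fold change was 1.43 (SE 0.22, adjusted p = 0.000772) without positive replicate 3. With a pseudocount of 0.01, the adjusted p was 0.176, in a fit where the 4 groups share an estimate of the spread. Over the 20 alternative settings the log2 fold change in CFPAC-1 stayed between 1.01 and 1.43.

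Between the lines, reads of *ALDH1A1* per library read were 727-fold higher in CFPAC-1 negative than in SW1990 negative cells (exact 95% counting interval 334 to 1983). In positive cells they were at least 3172-fold higher in CFPAC-1, taking 3 reads over the SW1990 group as the limit that a count of 0 allows. Whether both mates of a read pair were counted is not given in the sources used here, and recovered counts from 11 to 20 were even in 57.9% of 8915 values. With 2 reads taken as 1 pair, the interval widened to 249 to 3531 and the bound became at least 1586-fold. These intervals and limits cover counting error only. The change with sorting differed between the lines by -1.62 (SE 0.35, adjusted p = 0.00555), a call lost with voom on recovered reads (adjusted p = 0.177). In SW1990 both groups lay near or under the limit of the depth and no fold is given there.

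*ALDH1A2*, the isoform known as the main source of retinoic acid in the embryonic trunk, was near the limit of the depth in both lines. It had 0 to 4 reads in any SW1990 sample and 4 to 14 in any CFPAC-1 sample, with at most 0.264 RPKM. Summed over groups the reads were 8, 2, 26 and 23 in SW1990 negative, SW1990 positive, CFPAC-1 negative and CFPAC-1 positive cells. The ranges of neighbouring groups overlapped, and no difference with sorting was detectable at this depth.

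Added together, the 3 dehydrogenases gave 381 ± 51.3 RPKM in SW1990 negative, 532 ± 157 in SW1990 positive, 998 ± 33.2 in CFPAC-1 negative and 498 ± 83.0 in CFPAC-1 positive cells. *ALDH1A3* made up 99.98% of that sum in SW1990 negative and 97.0% ± 0.128 in CFPAC-1 negative cells. In CFPAC-1 positive cells its share was 85.6% ± 5.87, and the share of *ALDH1A1* was 14.4% ± 5.89 against 3.01% ± 0.134 in negative cells. The share of *ALDH1A1* in the CFPAC-1 positive samples, 8.27% to 20.03%, lay above that of every negative sample.

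**Figure D2:**
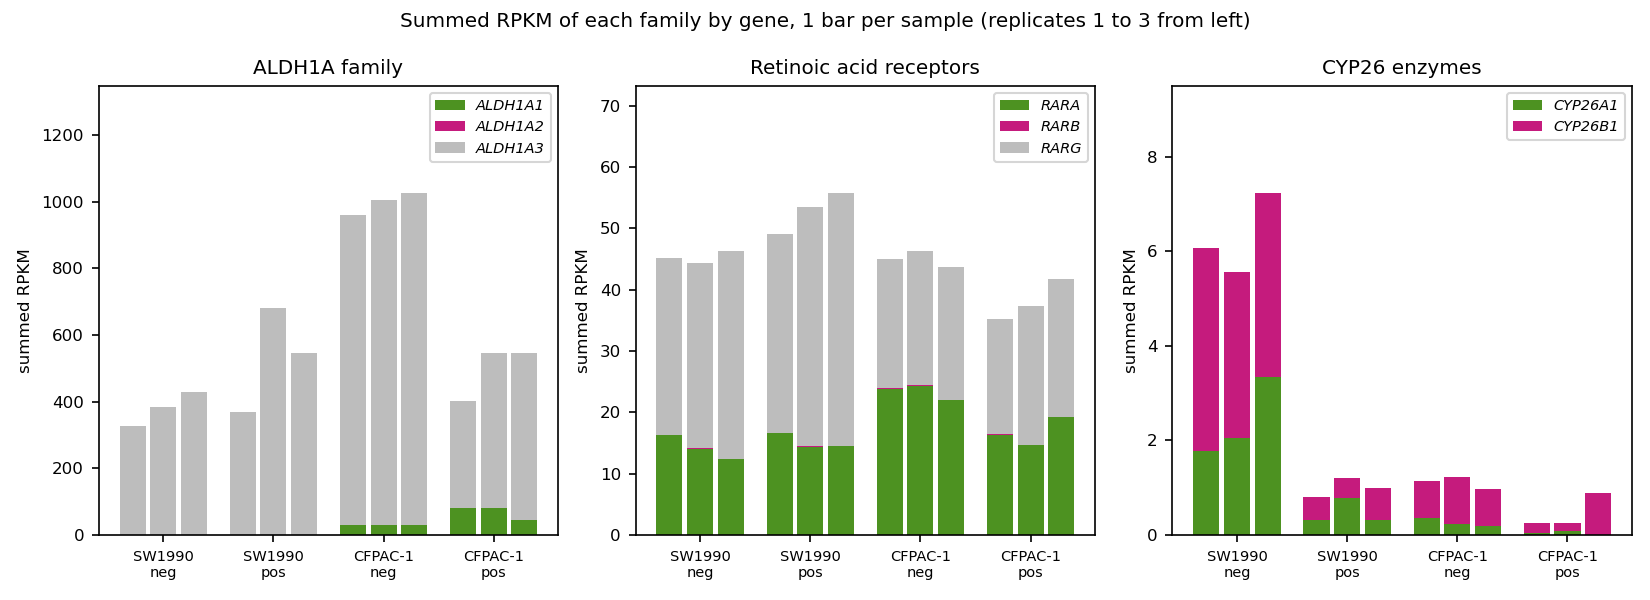
Summed RPKM of the *ALDH1A*, *RAR* and *CYP26* genes, with 1 bar per sample (replicates 1 to 3 from left in each group) split by gene and linear axes starting at 0. *ALDH1A3* fills nearly the whole bar in SW1990, *ALDH1A1* adds a visible part in CFPAC-1 positive cells, the receptor sums stay between 35.3 and 55.8 RPKM, and the *CYP26* sum is highest in SW1990 negative cells.

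*CRABP2*, which carries retinoic acid to the nuclear receptors, showed the largest change of the 8 genes fitted. SW1990 negative cells held 26.9, 25.0 and 36.4 RPKM and SW1990 positive cells 202, 313 and 277. In CFPAC-1 the values were 208, 273 and 237 in negative and 200.4, 249 and 198 in positive cells. SW1990 negative cells thus stood alone at a low level, and the other 3 groups overlapped. In SW1990 the mean rose from 29.4 ± 6.10 to 264 ± 56.6 RPKM, a log2 fold change of 3.15 (SE 0.18, adjusted p = 2.62e-07) or 8.91-fold. In CFPAC-1 the log2 fold change was -0.15 (95% interval -0.55 to 0.25, adjusted p = 0.558), and -0.09 (adjusted p = 0.767) without positive replicate 3. The change differed between the lines by 3.30 (SE 0.26, adjusted p = 8.07e-06). Over the 20 alternative settings the log2 fold change in SW1990 stayed between 3.02 and 3.34.

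Among the receptors, *RARG* and *RARA* were expressed at moderate levels in all samples and *RARB* was near the limit of the depth. *RARG* held 28.8, 30.2 and 33.9 RPKM in SW1990 negative and 32.5, 39.0 and 41.4 in SW1990 positive cells. In CFPAC-1 it held 21.0, 22.0 and 21.6 RPKM in negative and 18.9, 22.6 and 22.5 in positive cells. All SW1990 samples lay above all CFPAC-1 samples, and within each line the sorted groups overlapped. Its log2 fold change with the antigen was 0.27 (95% interval 0.04 to 0.51, adjusted p = 0.0813) in SW1990 and -0.02 (-0.26 to 0.22, adjusted p = 0.919) in CFPAC-1, and neither was called. Without CFPAC-1 positive replicate 3 the latter was -0.06 (adjusted p = 0.726).

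*RARA* held 16.3, 14.1 and 12.3 RPKM in SW1990 negative and 16.6, 14.4 and 14.4 in SW1990 positive cells. CFPAC-1 negative cells held 23.9, 24.3 and 22.1 RPKM and CFPAC-1 positive cells 16.4, 14.7 and 19.3. CFPAC-1 negative cells stood above the other groups, which overlapped. In CFPAC-1 the log2 fold change was -0.49 (SE 0.12, adjusted p = 0.00975), or -0.59 (adjusted p = 0.00326) without positive replicate 3, both under the 2-fold threshold, and in SW1990 it was 0.10 (95% interval -0.17 to 0.37, adjusted p = 0.623). The difference between these changes was 0.58 (SE 0.18, adjusted p = 0.0284). It passed in 13 of 20 alternative settings, with adjusted p from 0.00831 to 0.0678.

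*RARB*, whose promoter is printed above, had 0 to 6 reads in any sample, at most 0.0733 RPKM. The group sums were 7, 2, 8 and 10 reads in SW1990 negative, SW1990 positive, CFPAC-1 negative and CFPAC-1 positive cells. All neighbouring groups overlapped, and no difference with sorting was detectable at this depth. The 3 receptors summed to 45.2 ± 0.992 RPKM in SW1990 negative, 52.8 ± 3.44 in SW1990 positive, 45.0 ± 1.32 in CFPAC-1 negative and 38.2 ± 3.32 in CFPAC-1 positive cells. *RARG* was the larger part in SW1990, at 68.4% ± 4.70 and 71.1% ± 4.28 of the sum in negative and positive cells. In CFPAC-1 negative cells *RARA* made up 52.0% ± 1.35 and *RARG* 47.9% ± 1.43, and in CFPAC-1 positive cells the shares were 43.9% ± 4.00 and 55.9% ± 3.96.

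Transcripts of the enzymes that break down retinoic acid were low in all groups and highest in SW1990 negative cells. *CYP26A1* held 1.77, 2.06 and 3.35 RPKM in SW1990 negative and 0.312, 0.784 and 0.319 in SW1990 positive cells. In CFPAC-1 it held 0.352, 0.240 and 0.182 RPKM in negative and 0.0463, 0.0860 and 0 in positive cells. The sorted groups did not overlap in either line. In SW1990 the gene fell by 2.17 on the log2 scale (SE 0.37, adjusted p = 0.000907), from 356 to 62 reads over the groups. In CFPAC-1 it fell by 1.33 (SE 0.37, adjusted p = 0.0156), from 39 to 7 reads.

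Counted in reads per library read, *CYP26A1* was 5.05-fold higher in negative than in positive cells of SW1990 (exact 95% counting interval 3.85 to 6.72, or 3.43 to 7.65 with 2 reads taken as 1 pair). In CFPAC-1 that ratio was 4.99-fold (2.21 to 13.2, or 1.501 to 18.03 with pairs). These intervals cover counting error only and leave out the spread between samples. The difference between the changes did not pass (-0.84, 95% interval -1.99 to 0.31, adjusted p = 0.266). The call in CFPAC-1 was lost without negative replicate 1 (log2 fold change -1.15, adjusted p = 0.0603), without negative replicate 2 (-1.36, 0.0404) and without positive replicate 3 (-1.09, 0.0497). With a pseudocount of 1 the log2 fold change was -0.27 (adjusted p = 0.222).

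*CYP26B1*, another retinoic acid hydroxylase, held 4.31, 3.50 and 3.88 RPKM in SW1990 negative and 0.501, 0.416 and 0.673 in SW1990 positive cells. CFPAC-1 negative cells held 0.783, 0.980 and 0.787 RPKM. CFPAC-1 positive cells held 0.203 and 0.176 in replicates 1 and 2, but 0.886 in replicate 3, which lay among the negative samples. The SW1990 groups were well apart, and the CFPAC-1 groups overlapped through that sample. In SW1990 the gene fell by 2.68 on the log2 scale (SE 0.40, adjusted p = 0.000301). In CFPAC-1 the log2 fold change was -1.12 (SE 0.40, adjusted p = 0.0443) with an unadjusted p over 0.01, so that it was not called. Without positive replicate 3 it was called, at -1.71 (SE 0.22, adjusted p = 0.000275). The difference between the lines was -1.56 (SE 0.56, adjusted p = 0.0584) and did not pass, but passed at -0.97 (adjusted p = 0.0289) without that sample. Added together, the 2 hydroxylases gave 6.29 ± 0.857 RPKM in SW1990 negative, 1.00 ± 0.194 in SW1990 positive, 1.11 ± 0.128 in CFPAC-1 negative and 0.466 ± 0.364 in CFPAC-1 positive cells.

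*DHRS3*, which reduces retinaldehyde to retinol, held 46.0, 55.8 and 59.6 RPKM in SW1990 negative and 26.3, 41.7 and 40.1 in SW1990 positive cells. In CFPAC-1 it held 129.9, 131.7 and 129.1 RPKM in negative and 50.6, 78.2 and 69.8 in positive cells. Negative cells lay above positive cells without overlap in both lines, and CFPAC-1 negative cells above all other samples. In CFPAC-1 the log2 fold change was -0.999 (SE 0.19, adjusted p = 0.00174), just short of 2-fold, and it was called at -1.05 (adjusted p = 0.00355) without positive replicate 3. The log2 fold change in SW1990 was -0.60 (SE 0.19, adjusted p = 0.0321), also under the 2-fold threshold. The difference between the lines was 0.40 (95% interval -0.18 to 0.98, adjusted p = 0.289).

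**Figure D3:**
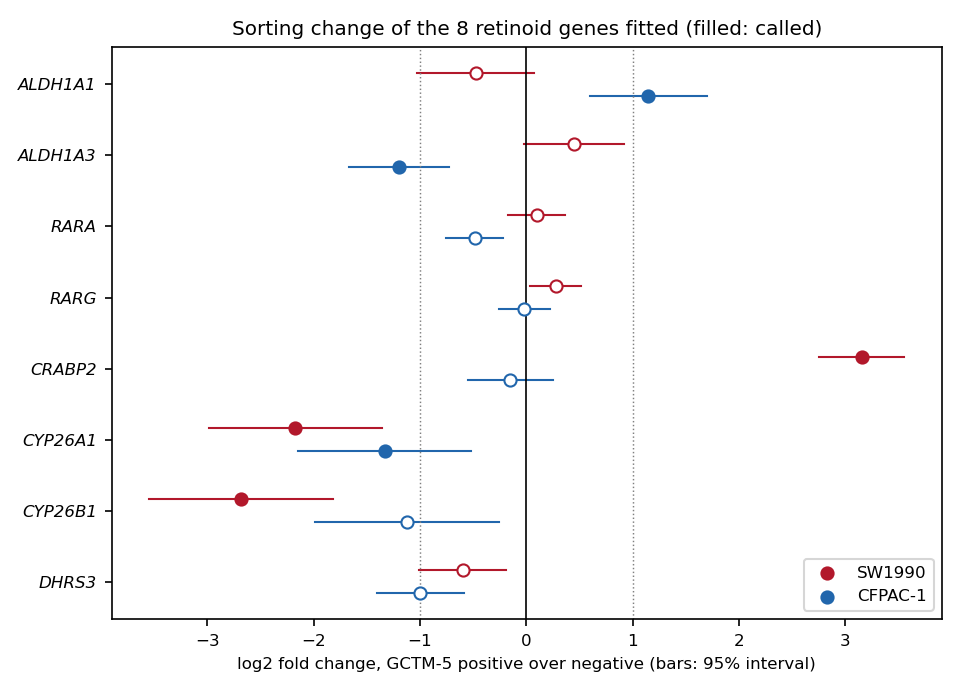
Log2 fold change of GCTM-5 positive over negative cells for the 8 retinoid genes fitted, in SW1990 (red) and CFPAC-1 (blue); bars are 95% intervals, filled points are called, and dotted lines mark 2-fold. *CRABP2* is far to the right in SW1990 alone, *ALDH1A1* and *ALDH1A3* lie on opposite sides of 0 in CFPAC-1, and *CYP26A1*, *CYP26B1* and *DHRS3* lie left of 0 in both lines.

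The tested change with sorting differed between the lines for 4 of the 8 genes (*ALDH1A1*, *ALDH1A3*, *CRABP2* and *RARA*), where 26.9% of all genes tested did. It did so for 5 without CFPAC-1 positive replicate 3, *CYP26B1* being the other one, and no count over all genes is given for that fit. With all samples, these differences over all genes split 1487 above and 2887 below 0, and 1987 above and 1988 below with each sample centred on its median. Since the members were few and that share of genes is high, the count is not a result about retinoid genes. The same holds for the lines themselves. In negative cells 6 of 8 genes differed between SW1990 and CFPAC-1 where 36.9% of all genes did, with *CYP26A1* and *CYP26B1* higher in SW1990 (log2 difference 2.78 and 2.08, adjusted p = 3.14e-05 and 0.000527) and *ALDH1A1*, *ALDH1A3*, *CRABP2* and *DHRS3* higher in CFPAC-1. The log2 difference was -1.35 for *ALDH1A3* (adjusted p = 0.000127), -3.03 for *CRABP2* (adjusted p = 3.44e-08) and -1.28 for *DHRS3* (adjusted p = 6.24e-05). All genes called there split 3560 higher and 2433 lower in SW1990, or 2880 and 2937 after median centring.

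In positive cells 2 of the 8 genes were called between the lines, where 28.5% of all genes were. This count too is not a result about retinoid genes. *CYP26A1* was higher in SW1990 (log2 difference 1.94, adjusted p = 0.000693), a call lost with a pseudocount of 1, and *ALDH1A1* was higher in CFPAC-1. For *ALDH1A3* the log2 difference was 0.29 (95% interval -0.18 to 0.76) and for *CRABP2* 0.28 (-0.12 to 0.67), so the gaps seen between negative cells of the lines were not detected between positive cells. *DHRS3* (-0.88, adjusted p = 0.00142) and *RARG* (0.81, adjusted p = 4.23e-05) stayed under 2-fold. These are differences between 2 cell lines, not between kinds of tumour. They share samples with the sorting comparisons and are not independent of them.

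A further 48 genes of retinoid uptake, storage, oxidation, signalling and response were listed by role, and 35 of them passed the filter on low values. The list was drawn up with earlier results of these data known. In SW1990, 6 of 35 rose and 3 fell with the antigen, and in CFPAC-1 1 rose and 3 fell, with median log2 fold changes of -0.07 and -0.09, to be read against the shares and medians of all genes given above. Leaving out CFPAC-1 positive replicate 3 gave the same count in that line. The change differed between the lines for 12 of 35, where it did for 26.9% of all genes tested. *ADH7*, *CRABP1*, the other cellular retinoic acid binding protein, and *TTR*, which carries the retinol binding protein in blood, had no read in any sample.

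*STRA6*, the cell surface receptor for retinol bound to RBP4, was at 8.46 ± 1.90 RPKM in SW1990 negative and 1.08 ± 0.252 in SW1990 positive cells, and at 5.81 ± 0.640 and 2.74 ± 1.19 RPKM in CFPAC-1. In the fit of all samples it was the only gene of the list called in the same direction in both lines, with log2 fold changes of -2.85 (adjusted p = 1.32e-05) and -1.14 (adjusted p = 0.0084), and the change differed between them (-1.71, adjusted p = 0.00788). The call in CFPAC-1 was lost without positive replicate 1 (-0.82, adjusted p = 0.0304) and with a pseudocount of 1 (-0.91), and the log2 fold change was -1.44 (adjusted p = 0.00145) without positive replicate 3. *RBP4*, the serum carrier of retinol, fell in SW1990 (-1.79, adjusted p = 0.00481) from 3.00 ± 1.30 to 0.752 ± 0.140 RPKM. In CFPAC-1 its log2 fold change was 0.23 (95% interval -0.63 to 1.09), and -0.23 (adjusted p = 0.623) without positive replicate 3.

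In SW1990 positive cells, 2 of 2 genes of retinyl ester synthesis, 2 of 6 of retinol oxidation and 1 of 4 of retinal reduction rose, where 4.59% of all genes tested did. Groups this small are described here by their members and not as a theme. *LRAT*, which esterifies retinol, rose from 0.402 ± 0.0764 to 1.80 ± 0.239 RPKM (log2 fold change 1.92, adjusted p = 3.77e-05), and *DGAT1*, an acyltransferase that also esterifies retinol, rose from 8.73 ± 1.77 to 21.1 ± 2.23 (1.28, adjusted p = 0.000568). *DHRS9*, a retinol dehydrogenase, rose from 14.3 ± 3.26 to 93.2 ± 27.8 RPKM (2.67, adjusted p = 2.26e-05). *RDH13*, a mitochondrial member of the retinol dehydrogenase family, rose from 8.32 ± 1.20 to 21.9 ± 1.54 RPKM (1.40, adjusted p = 2.91e-05). None of these 4 was called in CFPAC-1, and the change of each differed between the lines, by 1.29, 1.34, 2.43 and 1.60 in that order (adjusted p from 0.000262 to 0.00881). For *LRAT* the log2 fold change in CFPAC-1 was also above 0, at 0.63 (95% interval 0.16 to 1.11, adjusted p = 0.0377), under 2-fold. With a pseudocount of 1 the call of *LRAT* in SW1990 was lost (0.99). *BCMO1*, which cleaves carotene to retinaldehyde, fell in SW1990 from 0.352 ± 0.0533 to 0.108 ± 0.108 RPKM (-1.23, adjusted p = 0.00991, but -0.29 and 0.0923 with a pseudocount of 1), and held 1.90 ± 0.164 RPKM in CFPAC-1 negative and 3.16 ± 0.629 in CFPAC-1 positive cells, without a call.

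*ADH1C*, an alcohol dehydrogenase that can oxidise retinol, moved in opposite directions in the 2 lines. It rose in SW1990 from 1.92 ± 0.345 to 16.1 ± 1.43 RPKM (log2 fold change 3.02, adjusted p = 7.22e-05) and fell in CFPAC-1 from 37.1 ± 4.71 to 12.5 ± 9.36 (-1.80, adjusted p = 0.00297). The CFPAC-1 positive samples held 5.81, 8.53 and 23.2 RPKM, and without replicate 3 the log2 fold change was -2.37 (SE 0.19). The difference between the lines was 4.82 (SE 0.52, adjusted p = 6.4e-05). *ADH1C* has close paralogues in *ADH1A* and *ADH1B*, which were at or near 0 in all groups, and how reads that match several genes were counted is not given in the sources used here.

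*FABP5*, which carries retinoic acid to PPARD, rose in CFPAC-1 from 0.857 ± 0.355 to 2.65 ± 1.41 RPKM (log2 fold change 1.47, adjusted p = 0.00831), with 9 to 18 reads in each negative and 22 to 40 in each positive sample. Processed copies of *FABP5* in the genome may share its reads, so this value is uncertain, and with a pseudocount of 1 it was not called (0.92). Without positive replicate 3 the log2 fold change was 1.07 (adjusted p = 0.025). None of the 3 receptors tested (*RXRA*, *RXRB* and *PPARD*) and none of the 6 coregulators was called in either line. *PPARD* had a log2 fold change of 0.74 in SW1990 (adjusted p = 0.00297), under 2-fold. Of all genes tested, 4.59% rose and 7.48% fell in SW1990, and 5.65% rose and 4.13% fell in CFPAC-1. Beside those shares, counts in lists this small are not a result about the lists. Of the 7 genes listed as retinoic acid responsive, 1 was called. *GPRC5A*, first described as a retinoic acid induced gene, rose in SW1990 from 127 ± 5.56 to 258 ± 22.3 RPKM (1.02, adjusted p = 7.67e-06), a call just past 2-fold that was lost without negative or positive replicate 2 of that line (0.99 and 0.96), and was at 273 ± 9.80 and 253 ± 22.3 RPKM in CFPAC-1. *TGM2*, the most abundant of these, averaged 2067 RPKM in CFPAC-1 negative and 1122 RPKM in CFPAC-1 positive cells, and its log2 fold change of -0.89 (adjusted p = 0.00152) stayed under 2-fold, as it did without positive replicate 3 (-0.99).

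**Figure D4:**
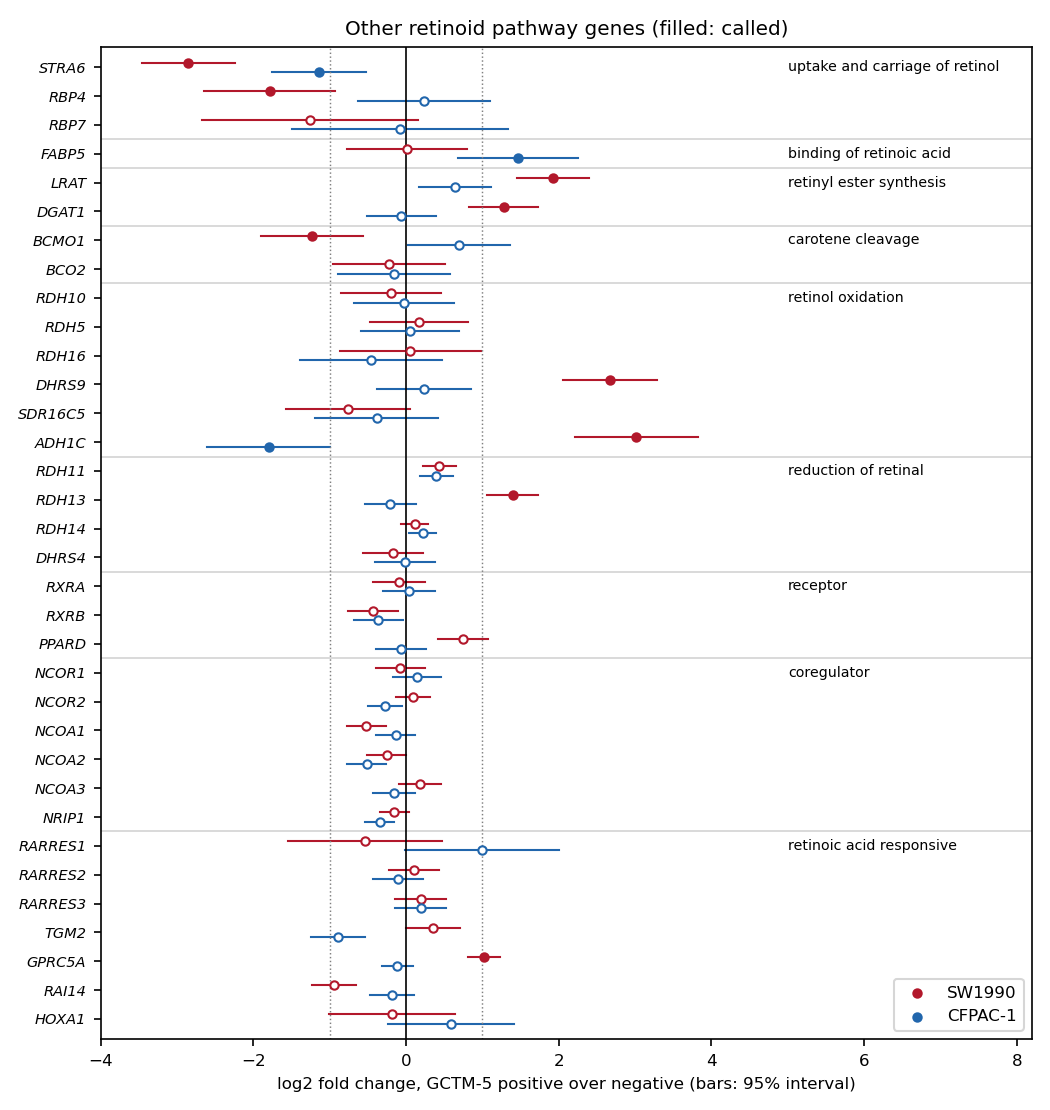
Log2 fold change of GCTM-5 positive over negative cells for the further retinoid pathway genes fitted and reported here, grouped by role, in SW1990 (red) and CFPAC-1 (blue); bars are 95% intervals, filled points are called, and dotted lines mark 2-fold. *STRA6* is the one gene filled on the same side in both lines, *ADH1C* is filled on opposite sides, and none of the receptors or coregulators is filled.

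For each of the 7 members with a mean of at least 1 RPKM, the genes with the most similar pattern over the 12 samples were found by the root mean square difference of log2 values, each gene centred on its own mean, among 13261 candidates. The genes nearest to *CRABP2* included *MAL2* (0.216). *MAL2* averaged 64.8, 531, 389 and 484 RPKM in SW1990 negative, SW1990 positive, CFPAC-1 negative and CFPAC-1 positive cells. *ALDH1A3* lay nearest to *PTPRH* (0.162), *ZNF385C* (0.208) and *GALNT9* (0.220), and *PTPRH* averaged 7.49, 8.96, 18.5 and 7.32 RPKM in the same order. Those nearest to *ALDH1A1* included *CCBE1* (0.525) and *MT1L* (0.535), and *CCBE1* was at 0 in both SW1990 groups and held 12.5 ± 3.27 RPKM in CFPAC-1 negative and 38.5 ± 8.53 in CFPAC-1 positive cells. These distances are a description over samples that share line and sort.

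The genes nearest to *CYP26B1* were *LBH* (0.371), *SERPINE2* (0.439) and *CYP27C1* (0.461), the last an enzyme that desaturates retinol. *CYP27C1* averaged 4.25, 0.706, 1.24 and 0.461 RPKM in the same order of groups. *DHRS3* lay nearest to *TRIM4* (0.140), *UBE2H* (0.144) and *EPB41L4A-AS1* (0.156). The steadier receptors lay nearest to genes of like small range, *RARA* to *CAPN2* (0.129), *KRCC1* (0.137) and *WHAMM* (0.138), and *RARG* to *ATXN10* (0.106) and *UBAC2* (0.108).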

How the data were processed

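Expression values of 12 RNA-seq samples, 4 groups of 3, were examined. The authors aligned reads to hg19/GRCh37, counted them by gene with QuasR and deposited RPKM values, normalised for library size and gene length. The annotation, use of strand, treatment of reads that match several genes and tool versions are not given in the sources used here. The sources differ on the library kit (TruSeq in the study's methods, a strand-specific SureSelect kit in the labels) and on the medium.

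The 16236 of 23346 genes whose mean RPKM reached 0.1 were fitted as log2(RPKM + 0.1) with limma 3.58.1 in R 4.3.3 (4 group means, eBayes with an intensity trend, 2-sided tests). Thresholds of 2-fold and p under 0.01 follow the study, which named TCC for its own tests, not used here. An exact permutation test of 3 against 3 cannot go below p = 0.1 and was not used. Whole reads were recovered from the deposited RPKM values to within 0.01 read for all 19654 genes above 0, with Python 3.11.15, numpy 2.4.6 and pandas 2.3.3, and library totals were 9969697 to 26159330. A gene with few reads may be given counts too low by a common factor. Counting intervals are exact (scipy 1.17.1) and take reads as independent. Figures were drawn with matplotlib 3.10.9.

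Whether negative and positive samples of the same number came from the same sort is not given, and the main fit took them as unpaired. Correlations of same-numbered deviations were 0.33, 0.058 and 0.22 in SW1990, where differently numbered samples gave -0.42 to 0.26. In CFPAC-1 they were -0.048, -0.0030 and -0.074, where differently numbered samples gave -0.051 to 0.076. These values do not settle whether the samples were paired. Alternatives were pseudocounts of 1 and 0.01, no filter or a mean RPKM of at least 1, median centring, a replicate block, eBayes without a trend, voom on recovered reads, an adjusted p in the call, and each sample left out in turn. Scripts were tested on simulated data. The 10 members and the pathway and marker lists were chosen with earlier results of these data known. Named were all 10 members, pathway genes of mean RPKM at least 1 called in either line, and the 3 nearest genes of each member of mean RPKM at least 1, sex-linked Y chromosome genes and *XIST* left out. *RXRA*, *RXRB*, *PPARD*, *TGM2*, *ADH1A*, *ADH1B*, *AQP9* and the 3 genes without a read were named after their values were seen. So were the markers *LUM*, *CDH5*, *PECAM1*, *VWF* and *CD14*. Gene coordinates are from GENCODE 44 mapped to GRCh37, and promoters from RefSeq on GRCh38.p14. Some genes that these rules would name are not reported here, though counts over the pathway list cover all genes fitted. Protein sequences were not analysed here.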

Additional observations from a re-analysis of the deposited data

Results flagged for a closer look

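For 4 of the 10 genes, the change with GCTM-5 differed between SW1990 and CFPAC-1 by the interaction test of limma, which is why they are listed here. On the log2 scale, the SW1990 change minus the CFPAC-1 change was 3.30 for *CRABP2* (adjusted p = 8.07e-06), 1.65 for *ALDH1A3* (adjusted p = 0.00203), -1.62 for *ALDH1A1* (adjusted p = 0.00555) and 0.58 for *RARA* (adjusted p = 0.0284). The value for *ALDH1A1* rests on SW1990 groups of 6 and 0 reads, and its call was lost with voom on recovered reads (adjusted p = 0.177). That for *RARA* passed in 13 of 20 alternative settings. Such a difference was found for 26.9% of all genes tested.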

How the results depend on the processing

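Of 795 values computed under the alternatives, 762 kept their direction and their side of the threshold, 16 newly passed, 14 no longer passed and 3 changed sign. Leaving out a sample of 1 line cannot alter the log2 fold change with sorting in the other line, so part of this agreement was fixed by the design. The 3 genes called in SW1990 became 2 with a mean RPKM of at least 1, where *CYP26A1* was not fitted. The 3 genes called in CFPAC-1 became 5 with each sample centred on its median and 5 with voom on recovered reads, which added *CYP26B1* and *DHRS3*. Over all 16236 genes the number called there was 1588 in the main fit, 1582 with centring and 1721 with voom. Of these, 671, 858 and 742 were lower in positive cells. The 2 genes called between the lines in positive cells became 1 with a pseudocount of 1 and 1 with a mean RPKM of at least 1, where *CYP26A1* no longer passed or was no longer fitted. The difference between lines for *CYP26A1* changed sign with a pseudocount of 0.01 (0.38, adjusted p = 0.822). With 1 sample left out, the log2 fold change of *RARA* in SW1990 ran from -0.0013 to 0.20 and that of *RARG* in CFPAC-1 from -0.063 to 0.066, none of them called. The difference between lines for *ALDH1A1* had an adjusted p of 0.177 with voom on recovered reads. The cause of these changes was not tested. Fitting line by replicate number as a replicate block left the number of members called at 3 in each line, 4 for the difference, and 6 and 2 between the lines. In SW1990 the block lowered the adjusted p of *RARG* from 0.0813 to 0.0488 and of *DHRS3* from 0.0321 to 0.0112, both under 2-fold. It raised that of *CRABP2* to 2.08e-05, of *CYP26A1* to 0.00312 and of *CYP26B1* to 0.00158. Over all genes, a pseudocount of 1 lowered the number called from 1961 to 1101 in SW1990, from 1588 to 759 in CFPAC-1 and from 4627 to 2965 between positive cells of the lines. Centring moved the median difference of all genes from -0.15 to 0.00081 for the contrast of the lines' changes, and from 0.19 to 0.0060 between negative cells. Depth limits *ALDH1A1* in SW1990, *ALDH1A2*, *RARB* and, in CFPAC-1, *CYP26A1*.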
